A study of Mus musculus with 18 samples.

Results

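The 945 regions described here are distal ATAC-seq peaks that opened when macrophages met LPS and were held down both by (+)-JQ1, hereafter JQ1, and by IL-10. They were chosen by mean CPM (the count in a peak scaled to a total of 1000000 counts over all peaks of the library). A member had 2 CPM or more with LPS, an LPS level at least 2 times that of unstimulated cells, and a level of 0.6 times the LPS value or less in each treated LPS group. Of 194284 peaks in the series, 157614 lay outside promoters and 4500 of these opened with LPS by the first criteria. JQ1 alone among the treatments brought 912 of the opened peaks to 0.6 or less, IL-10 alone did so for 694, both for 945 and neither for 1949. The values that chose the members are given as a description and carry no test.

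ATAC-seq uses a transposase that cuts open DNA, so the count over a region measures its accessibility. LPS, a component of the bacterial outer membrane, is sensed by TLR4 on macrophages and opens enhancers, the distal elements that act on promoters. JQ1 occupies the bromodomains of BET proteins, which bind acetylated histones at active enhancers, and IL-10 is a cytokine that restrains macrophage activation through its receptor and STAT3. Accessibility here is a property of the DNA region, and no transcript was measured in these libraries.

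All 18 libraries came from bone marrow-derived macrophages of 3 male Il10-/- mice, 12 weeks old and of C57BL/6J background, and were grown for 6 days with L929 conditioned medium. Because every group lacks endogenous IL-10, the IL-10 measured against is only what was added. The cells were given vehicle (untreated in the labels), 500 nM JQ1 or 10 ng/mL IL-10 for 12 hours, and then 50 ng/mL LPS or PBS for 4 hours more, which makes the 6 conditions unstimulated, JQ1, IL-10, LPS, LPS + JQ1 and LPS + IL-10 with n = 3 each. Total counts in peaks ran from 12020526 to 25908198 per library. Replicate 1 was sequenced in lane 5 and replicate 3 in lane 6 throughout, while replicate 2 was in lane 5 without LPS and in lane 6 with it. Promoter peaks were found for 7 of 8 macrophage markers, all but Spi1, at median levels from 6.76 to 34.5 CPM. The T-cell genes Cd3e, Cd3g and Cd3d had none. Promoters of some genes of other lineages were open to a similar level, such as Lck at 24.0 CPM and Elane at 27.4 CPM. The dendritic cell gene Zbtb46 had 31.4 CPM and the fibroblast gene Pdgfra 28.8 CPM. Promoter levels thus did not set macrophage genes apart, and the part of other cells in the results was not tested.

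Stretches of 7 members are shown first, because they lie at genes that recur in the results and hold several of the motifs searched. They were read from build mm9 on the plus strand, and capitals mark matches on either strand. In order these are the region downstream of Irf1 (AP-1, STAT), an intron of Rasgef1b (NF-kappaB, C/EBP, AP-1), the region beyond Traf1 (overlapping NF-kappaB matches, E-box), the region beyond Gbp3 (C/EBP, C/EBP, STAT), the region at Cd69 (ISRE, C/EBP), an intron of Gm14023 between Ckap2l and Il1a (STAT, ISRE) and the region beyond Il6 (C/EBP, E-box).
Irf1, chr11:53593428-53593530: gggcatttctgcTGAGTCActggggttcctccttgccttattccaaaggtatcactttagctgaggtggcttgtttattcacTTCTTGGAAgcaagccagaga
Rasgef1b, chr5:99649886-99650035: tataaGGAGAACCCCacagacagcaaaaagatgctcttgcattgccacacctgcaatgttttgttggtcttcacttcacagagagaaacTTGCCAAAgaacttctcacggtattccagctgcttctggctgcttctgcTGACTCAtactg
Traf1, chr2:34794340-34794489: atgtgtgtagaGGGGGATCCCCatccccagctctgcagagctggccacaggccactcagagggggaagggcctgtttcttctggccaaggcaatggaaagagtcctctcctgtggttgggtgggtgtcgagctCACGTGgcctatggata
Gbp3, chr3:142238666-142238814: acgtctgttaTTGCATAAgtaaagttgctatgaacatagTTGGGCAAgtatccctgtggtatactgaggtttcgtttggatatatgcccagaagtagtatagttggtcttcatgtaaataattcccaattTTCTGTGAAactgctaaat
Cd69, chr6:129215091-129215205: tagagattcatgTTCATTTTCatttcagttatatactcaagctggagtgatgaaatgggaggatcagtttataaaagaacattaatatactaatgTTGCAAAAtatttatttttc
Il1a, chr2:129124416-129124506: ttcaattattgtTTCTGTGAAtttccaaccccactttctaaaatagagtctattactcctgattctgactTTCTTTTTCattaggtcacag
Il6, chr5:30353844-30353963: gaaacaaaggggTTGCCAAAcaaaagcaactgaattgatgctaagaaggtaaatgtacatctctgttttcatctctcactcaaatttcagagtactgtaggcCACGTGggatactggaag

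As a share of all counts in peaks, the 945 members held little of each library before LPS and several times more after it. They took 0.252%, 0.206% and 0.169% of the counts in the unstimulated libraries and 0.749%, 0.735% and 0.763% in the LPS libraries. With LPS + JQ1 the share was 0.364%, 0.298% and 0.304%, and with LPS + IL-10 it was 0.347%, 0.291% and 0.336%. Every LPS library lay above every other library, and both treated LPS groups lay above all unstimulated libraries. JQ1 without LPS gave 0.145%, 0.135% and 0.141%, and IL-10 without LPS gave 0.145%, 0.155% and 0.148%, all lower than the unstimulated libraries. The unstimulated libraries spread more than any other group, and LPS + JQ1 replicate 1 stood above its 2 partners.

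**Figure D1:**
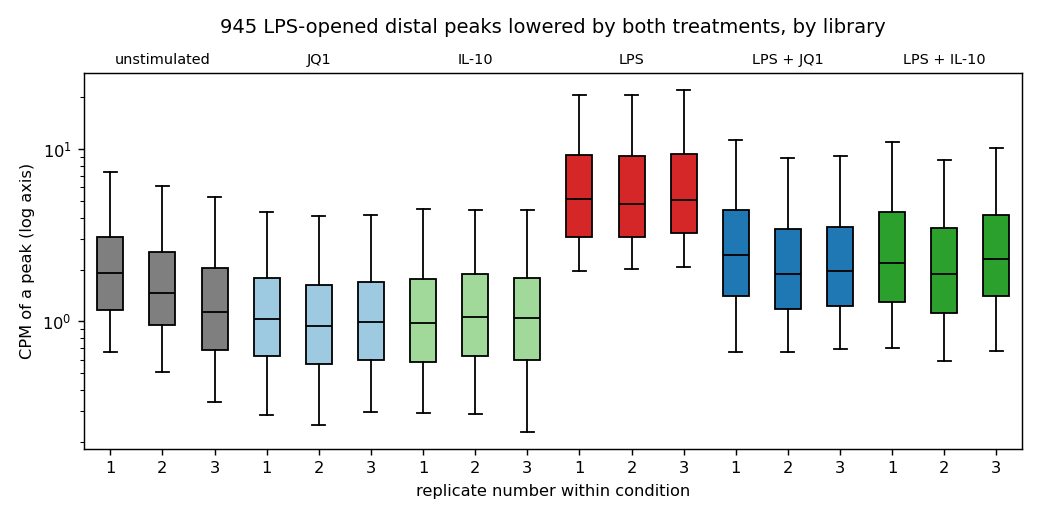
CPM of the 945 members (log axis) in each of the 18 libraries, grouped by condition, with the replicate number on the x axis. Boxes show quartiles, the line the median and whiskers the 5th and 95th percentiles; medians were 4.80 to 5.11 CPM in the LPS libraries, 1.89 to 2.42 with LPS + JQ1 and 1.89 to 2.31 with LPS + IL-10.

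The median member went from 1.5 CPM in unstimulated cells to 5.06 CPM with LPS, and stood at 2.10 CPM with LPS + JQ1 and 2.14 CPM with LPS + IL-10. The median ratio of LPS to unstimulated was 3.08, with a range from 2.00 to 30.6, and 276 members had opened 4-fold or more. The median all-distal ratio was 0.808 on the same scale, a value that depended on the scaling. With TMM scaling, which takes account of general shifts between libraries, the median log2 fold-change over distal peaks was -0.070. The median ratio to LPS was 0.439 with JQ1 and 0.447 with IL-10, whereas the medians over all distal peaks were 0.977 and 1.05. Both ratios were 0.5 or less at 447 members and 0.3 or less at 29.

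Accessibility did not always return to its starting point. In bulk libraries, a lower level in each cell and fewer cells with the region open cannot be told apart. Measured as a share of the LPS-induced gain, JQ1 removed a median of 83.8% (quartiles 71.6% and 98.0%) and IL-10 a median of 83.3% (70.7% and 98.7%). The mean level with LPS + JQ1 was still above that of unstimulated cells at 734 members, and with LPS + IL-10 at 731. At 211 and 214 members respectively it was at or below the unstimulated level. TMM divides a library's CPM by a factor, which was 1.24, 1.15 and 1.04 in the unstimulated libraries. It was 0.955, 0.939 and 0.996 with LPS + JQ1 and 0.979, 1.02 and 1.05 with LPS + IL-10. The shares and counts above were not computed on that scale, where the unstimulated baseline is lower.

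Library by library, every LPS library exceeded every unstimulated library at 931 of the 945 members, against 10.2% of distal peaks. Every LPS + JQ1 library was below every LPS library at 906, against 12.6%, and every LPS + IL-10 library was at 919, against 11%. In edgeR's quasi-likelihood test over all peaks (FDR under 0.05), 945 members were called higher with LPS, against 12.3% of distal peaks. With LPS + JQ1 855 were called lower than with LPS, against 3.66% of distal peaks, and with LPS + IL-10 909 were, against 4.97%. All these counts rest on the contrasts and libraries that selected the members, so nothing is read from them. All 945 passed the filter on low counts, although 29 of them had fewer than 3 of the 9 libraries without LPS at 10 counts or more.

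The cut-offs fell in a continuous distribution. Members near the opening limit were a peak at Slco3a1 with a ratio of 2.001 and a peak near Tmem85 with 2.006, while a peak near Ccdc25 fell just outside with 1.999. For the JQ1 ratio, peaks at Gbp2 and Ric8b were just inside with 0.5996 and 0.5999, and peaks at Chmp4b and Btla just outside with 0.6002 and 0.6004. For the IL-10 ratio the nearest were Irg1 with 0.5998 inside and B930007M17Rik with 0.6005 outside. For the LPS level, peaks near Foxc2 and Eif2ak2 had 2.00 CPM and the nearest peaks outside, near Gpc5 and Mthfs, had 1.99 CPM.

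**Figure D2:**
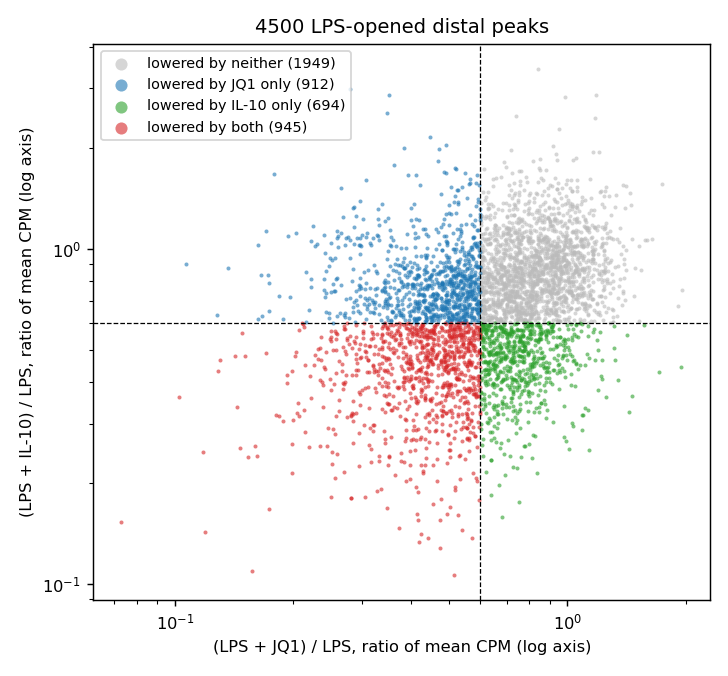
Ratio of mean CPM in LPS + JQ1 to LPS (x, log axis) and in LPS + IL-10 to LPS (y, log axis) for the 4500 LPS-opened distal peaks. Dashed lines mark 0.6; the 945 members (red) fill the lower left corner, with 912 peaks to its upper left and 694 to its lower right, and the clouds join without a gap. Both axes share the LPS libraries.

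The pattern was also read in libraries that had no part in the choice. When the same rule was applied to 2 replicates and the third was left for reading, 1452 peaks were chosen without replicate 1, 891 without replicate 2 and 776 without replicate 3. In the left-out replicate 1, 82.8% of the chosen peaks were higher with LPS than unstimulated and lower in both treated groups, beside 12.7% of all distal peaks. In the left-out replicate 2 the shares were 94.7% and 19.2%, and in the left-out replicate 3 they were 97.0% and 23.2%. The median ratios in the left-out library were 2.20, 2.78 and 4.26 for LPS to unstimulated, 0.562, 0.438 and 0.419 for JQ1, and 0.510, 0.424 and 0.499 for IL-10. The 3 ratios of a left-out replicate share its 1 LPS library, and the labels do not say that a number marks 1 mouse. The left-out values of replicate 1 were closer to 1 than those of the others in all 3 ratios. Without replicate 1 the number of peaks that met the rule was also more than 1.5 times that of the full set. Among the 1452 were 838 of the members. Within replicate 1 alone, all of it in lane 5, the members' median ratios were 2.55, 0.484 and 0.456. Within replicate 3 alone, all of it in lane 6, they were 4.32, 0.396 and 0.451. Unlike the left-out libraries, these helped to choose the members, so nothing is read from the direction of these ratios. Lane and replicate number go together here, so their parts cannot be told apart.

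Of the 8 members with the highest LPS levels, 4 lay near Irf1, Mx1, Rsad2 and Cd40, 2 near Rasgef1b, and the others near Gm4759 and in Cbx7. The highest of all, 7.75 kb downstream of the start of Irf1 (chr11:53591019-53597786, intergenic), a transcription factor of interferon and inflammatory responses, had 114, 119 and 128 CPM with LPS against 24.3, 24.0 and 23.5 CPM in unstimulated cells. It fell to 71.4, 59.5 and 60.1 CPM with LPS + JQ1 and to 52.5, 48.0 and 46.8 CPM with LPS + IL-10. Here the 3 LPS libraries were clear of both treated groups, and the IL-10 libraries were all below the JQ1 libraries. Its stretch printed above holds an AP-1 and a STAT match.

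Rasgef1b, which encodes a guanine nucleotide exchange factor of the Ras family and is induced by LPS, had the next 2. The intronic peak (chr5:99644322-99654158) had 33.2, 30.7 and 32.2 CPM unstimulated and 111, 130 and 120 CPM with LPS. JQ1 held it at 49.4, 37.1 and 44.3 CPM, and IL-10 at 22.8, 29.7 and 23.8 CPM. In CPM the IL-10 libraries thus lay below the unstimulated ones, and the JQ1 libraries above them. The place of the IL-10 libraries depends on the scaling, since TMM lowers the unstimulated ones (factors 1.24, 1.15 and 1.04). The second peak, 23.1 kb from the gene's nearest start (chr5:99637063-99642830), had the same order, at a mean of 88.9 CPM with LPS, 36.5 CPM with LPS + JQ1 and 17.4 CPM with LPS + IL-10.

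At the intergenic peak 13.0 kb from the Mx1 start (chr16:97665207-97666922), an antiviral GTPase gene, LPS gave 63.2, 60.0 and 68.4 CPM from 7.32, 8.67 and 9.72 CPM. The treated groups overlapped there, with 28.0, 39.6 and 35.5 CPM under JQ1 and 39.3, 34.1 and 31.0 CPM under IL-10. A peak 15.3 kb from the start of Rsad2 (chr12:27123694-27125166), which encodes the antiviral protein viperin, rose 12.8-fold to a mean of 59.3 CPM and stood at 29.7 and 29.3 CPM in the treated groups. The Cd40 peak (chr2:164899573-164901425), 12.3 kb from the start of this costimulatory receptor gene, had 67.0, 63.9 and 57.3 CPM with LPS, 38.3, 23.3 and 25.4 CPM with JQ1 added, and 20.5, 18.1 and 21.5 CPM with IL-10 added. LPS + JQ1 replicate 1 was the highest of its group at Cd40. The remaining peaks among the 8 highest were one nearest to Gm4759 (chr7:113641754-113647308) with 87.7 CPM with LPS, 26.4 CPM with JQ1 and 47.5 CPM with IL-10, and one in the Cbx7 UTR (chr15:79742487-79752475) with 56.5, 27.1 and 32.3 CPM.

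The deepest joint losses were at Il1a, Il6, Traf1 and Iigp1. Among members with 4 CPM or more, the 8 with the lowest larger ratio included 4 peaks at Ckap2l and Il1a, the gene of the cytokine interleukin-1 alpha, 2 downstream of Il6 and 1 each beyond Traf1 and at Iigp1, an interferon-inducible GTPase gene. The peak in a Ckap2l intron, 16.8 kb from the Il1a start (chr2:129117800-129119985), had 7.58, 6.27 and 4.63 CPM with LPS. It was at 1.25, 0.410 and 0.540 CPM with JQ1 and 0.895, 0.591 and 1.16 CPM with IL-10. The Il6 peak 9.74 kb from the start of that cytokine gene (chr5:30348554-30350317) had 12.1, 8.82 and 9.37 CPM with LPS, 1.10, 1.95 and 1.70 CPM with JQ1, and 0.845, 1.12 and 1.35 CPM with IL-10. The unstimulated libraries had 1.66, 1.01 and 1.31 CPM, so both treated groups overlapped them.

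The peak 21.3 kb beyond the start of Traf1 (chr2:34791889-34792738), an adaptor of TNF receptor signalling, had the lowest JQ1 ratio of any member, 0.073, with an IL-10 ratio of 0.153. It went from 10.3, 8.13 and 6.94 CPM with LPS to 0.881, 0.512 and 0.463 CPM with JQ1. Its larger neighbour 18.8 kb from the same start (chr2:34793707-34795921), whose stretch is printed above, was less affected, at 0.336 and 0.412. At such low treated levels a ratio rests on few counts, since 1 CPM is 12 to 26 counts at these depths.

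Members close to named genes were counted for lists of genes. Within 25 kb of a protein-coding transcription start lay 575 members, which was 0.582% of the 98750 distal peaks so placed and 21.3% of the 2695 LPS-opened ones. Around 25 interferon response genes, 68 of 310 distal peaks (21.9%) and 47.9% of 142 opened peaks were members, and 19 of the genes had at least 1. The cytokine list had 24 members among 58 opened peaks (41.4%), at 8 of 27 genes: Il1a, Il1b, Il6, Il27, Il18, Csf1, Edn1 and Tnfsf15. Costimulation and adhesion genes had 15 of 47 (31.9%), at Cd40, Cd86, Cd69 and Icosl.

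Other inflammatory lists had smaller shares. Of 40 opened peaks at chemokine and receptor genes, 7 were members (17.5%), all at Ccl5, Cxcl9 and Cxcl10, and 25 were lowered by neither treatment. At NF-kappaB genes and their regulators 9 of 61 were members (14.8%), at Nfkb1, Nfkbiz and Traf1, while 23 were lowered by IL-10 only. Pattern recognition genes had 5 of 28 (17.9%), inflammatory enzymes 4 of 24 (16.7%) and the AP-1 family 1 of 6 (16.7%). The list of IL-10 and STAT3 response genes had 22 opened peaks and no member, with 19 of the 22 lowered by neither treatment. Around the BET and P-TEFb genes, none of 87 distal peaks opened. The lists were assembled with earlier results of these libraries known, so the shares describe them and are no independent evidence.

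Single members at list genes differed in how far each treatment held them. The peak 5.18 kb from Ccl5 (chr11:83338123-83339546), a chemokine gene, had the largest opening of all, 30.6-fold, from 1.91, 1.20 and 0.569 CPM to 44.7, 32.3 and 35.8 CPM. It was at 17.8, 8.81 and 7.57 CPM with JQ1 and 12.6, 7.39 and 13.6 CPM with IL-10, so the treated groups overlapped. At the UTR of Il1b (chr2:129189794-129191003), the gene of interleukin-1 beta, LPS gave 29.4, 28.1 and 25.6 CPM, LPS + JQ1 6.17, 1.69 and 2.97 CPM and LPS + IL-10 15.7, 11.6 and 11.3 CPM. JQ1 was the lower there in all 3 libraries.

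The reverse order was seen at Cd69 (chr6:129214997-129217346), 9.21 kb from the start of this early activation lectin gene. LPS gave 33.9, 30.0 and 37.1 CPM, LPS + JQ1 24.0, 14.9 and 15.4 CPM and LPS + IL-10 5.22, 5.03 and 4.38 CPM. A peak shared by Cxcl10 and Cxcl9 (chr5:92773479-92774994), 3.67 kb from the Cxcl10 start, had similar levels in the treated groups, with means of 10.0 CPM under JQ1 and 10.6 CPM under IL-10 from 25.7 CPM with LPS. At Ifit3 (chr19:34665571-34669552), an interferon-induced antiviral gene, the means were 25.0 CPM with LPS, 6.36 CPM with JQ1 and 14.1 CPM with IL-10. Peaks at Irgm1 and Gbp3, both genes of interferon-inducible GTPases, at Irg1, which encodes the enzyme that makes itaconate, and at Traf1 had LPS means of 45.4, 22.7, 39.0 and 37.8 CPM. Their JQ1 ratios were 0.391, 0.484, 0.525 and 0.336, and their IL-10 ratios were 0.579, 0.480, 0.599 and 0.412.

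The levels in the treated groups were set side by side, although the same upper limit on both ratios draws them together. LPS + JQ1 was lower than LPS + IL-10 at 488 members and higher at 457, and the median ratio of the 2 groups was 0.981, beside 0.934 over all distal peaks. All 3 JQ1 libraries lay below all 3 IL-10 libraries at 140 members (14.8%, against 16.8% of distal peaks and 25.4% of LPS-opened ones), and the opposite held at 131 (13.9%, against 8.22% and 19.1%). These values chose the members, so nothing is read from the counts. At 39 members the JQ1 mean was under 0.5 times the IL-10 mean, and at 46 the IL-10 mean was under 0.5 times the JQ1 mean.

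Many members had another close by. When members less than 25 kb apart were joined, the 945 fell into 553 runs, of which 441 were lone peaks, and 32 runs of 5 or more held 298 members (31.5%). Joined in the same way, runs of 5 or more held 35.3% of the opened peaks lowered by JQ1 only, 15.6% of those lowered by IL-10 only and 13.3% of those lowered by neither. Members of a run share a locus and are not independent of each other. Chromosome 2 had 126 members, 13.3% of the set beside 11.5% of LPS-opened and 8.58% of all distal peaks, and 35 of the 126 were from the run at Ifih1. The protein-coding genes with the most members within 25 kb of a start were Slco3a1 with 14, Cmpk2 with 12, and Cd40 and Rsad2 with 10 each.

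The largest run covered Ifih1, the gene of the cytosolic double-stranded RNA sensor MDA5, and reached Fap (chr2:62420450-62476240). Within these 55.8 kb, 35 of 37 distal peaks were members and the other 2 were lowered by JQ1 only. Summed over the 35, the unstimulated libraries had 74.9, 61.3 and 49.0 CPM and the LPS libraries 235, 248 and 279 CPM. LPS + JQ1 gave 68.4, 70.0 and 72.3 CPM, in CPM within the range of unstimulated cells, and LPS + IL-10 gave 123, 98.6 and 103 CPM, above it. The place of LPS + JQ1 beside unstimulated cells depends on the scaling. TMM lowers the unstimulated libraries (factors 1.24, 1.15 and 1.04) and raises those with LPS + JQ1 (0.955, 0.939 and 0.996). The JQ1 and IL-10 libraries did not overlap.

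**Figure D3:**
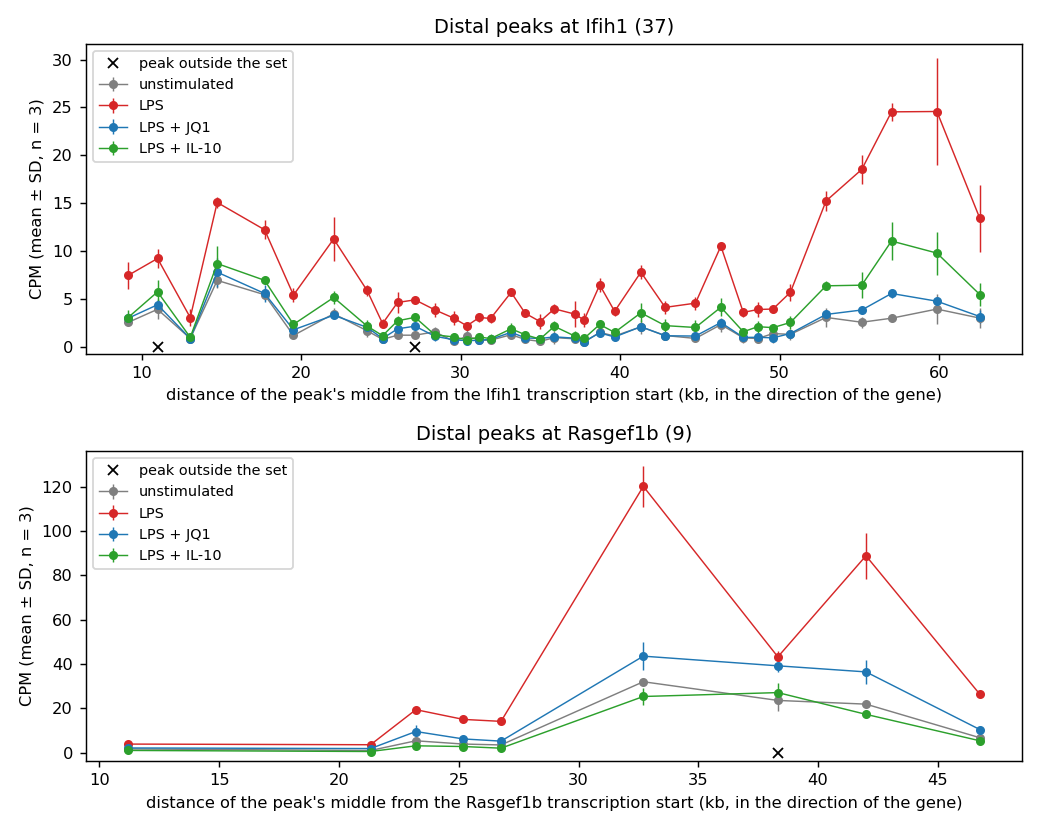
Mean CPM ± SD (n = 3) of every distal peak in the runs at Ifih1 (37 peaks) and Rasgef1b (9 peaks), by distance from the gene's transcription start in kb; crosses mark peaks outside the set. LPS is highest at all peaks of both loci. At Ifih1 LPS + IL-10 lies above LPS + JQ1 at 36 of 37 peaks, and at Rasgef1b below it at all 9.

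Slco3a1, which encodes an organic anion transporter, had the second largest run, 34 members spread over 270.4 kb that held 101 distal peaks, 59 of them not opened by LPS. The summed level was 155, 115 and 79.2 CPM unstimulated, 290, 281 and 289 CPM with LPS, 149, 108 and 121 CPM with JQ1 and 139, 118 and 152 CPM with IL-10. In CPM both treatments thus brought it into the unstimulated range, whose upper end was unstimulated replicate 1 with 155 CPM. TMM scaling lowers that library more than any other (factor 1.24), so this too depends on the scaling. The run at the neighbouring antiviral genes Rsad2 and Cmpk2 had 15 members among 20 distal peaks, with a 6.96-fold opening and ratios of 0.464 with JQ1 and 0.384 with IL-10. At Il1a all 8 distal peaks of the run were members, and the summed level went from 55.7, 46.7 and 41.9 CPM with LPS to 9.47, 8.50 and 8.88 CPM with JQ1 and 11.4, 9.05 and 12.2 CPM with IL-10.

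The summed levels of the treated groups, which also come from values the rule used, were compared run by run and not tested. The libraries of the treated groups were apart in 16 of the 32 runs, with JQ1 lower in 9 and IL-10 lower in 7. Of 31 such runs of opened peaks lowered by neither treatment, 8 had JQ1 lower and 3 had IL-10 lower. JQ1 was lower at Oasl1 and Oasl2 (ratios to LPS 0.192 and 0.433), Gm4951 (0.214 and 0.457), the antiviral Trim30 family (0.286 and 0.538), Ifih1 (0.276 and 0.426), Ifit3 (0.340 and 0.492) and Ddx60 (0.361 and 0.521), and also at Tmcc3, Rsph4a and Fndc3a. IL-10 was lower at Csf1, the macrophage growth factor gene (0.507 with JQ1 and 0.221 with IL-10), Rasgef1b (0.397 and 0.198), Il15, a cytokine gene (0.521 and 0.288), Cd40 (0.414 and 0.271) and the locus of the microRNA gene Mir155 (0.517 and 0.268), and also at Ebpl and Appl1. The groups overlapped in the other 16 runs, among them those at the interferon-induced genes Rsad2, Mx2, Cxcl10 and Iigp1. At Mir155, all 8 distal peaks of the run but 1 were members, and LPS opened the run 11.6-fold.

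LPS + JQ1 replicate 1 weighed on some of these values. It had the highest sum of its group in 20 of the 32 runs. At Mir155 it had 78.1 CPM where replicates 2 and 3 had 33.9 and 32.4 CPM, and without it the JQ1 ratio was 0.356 and the ratio of LPS + JQ1 to LPS + IL-10 1.33 in place of 1.93. At Malt1, the gene of a paracaspase of antigen receptor signalling with 13 members, it had 44.8 CPM beside 17.1 and 22.7 CPM, and without it the JQ1 ratio was 0.207 in place of 0.294. Without this library 1100 peaks met the rule, 918 of them among the 945.

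**Figure D4:**
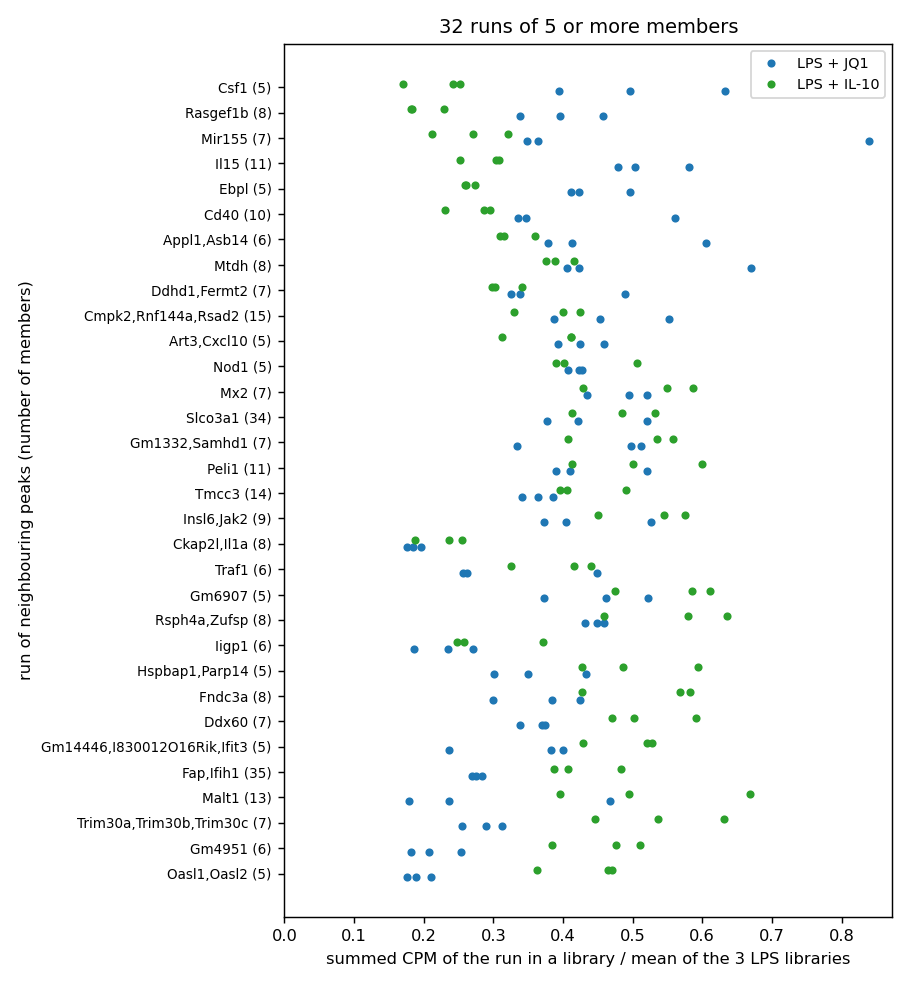
Summed CPM of each of the 32 runs of 5 or more members in each LPS + JQ1 and LPS + IL-10 library, divided by the mean of the 3 LPS libraries (x). Runs are ordered by the ratio of the JQ1 to the IL-10 mean, from Oasl1 and Oasl2 at the bottom (0.444) to Csf1 at the top (2.29); points are libraries and numbers in brackets are members.

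Without LPS, JQ1 was compared with IL-10, as these 2 groups had no part in the rule. JQ1 alone and IL-10 alone had median levels of 0.978 and 1.01 CPM, and edgeR called 8 members higher with JQ1, against 1.02% of distal peaks, and 12 lower, against 1.56%. The shares of members, 0.847% and 1.27%, were near these backgrounds, so the calls do not set members apart. An unadjusted p under 0.05 was found for 133 members (14.1%) and for 13.2% of distal peaks. Some members entered this test only through the LPS libraries, where they are high. With the filter and fit on these 2 groups alone 97 members dropped out, and of the other 848 edgeR called 10 higher (1.18%, against 2.35% of distal peaks) and 15 lower (1.77%, against 2.97%). The counts were lower when libraries were left out, and without the shares over distal peaks nothing is read from this. They were 4 and 7 without replicate 1 in every group, 1 and 3 without replicate 2, and 1 and 5 without replicate 3. Without 1 library of JQ1 replicate 1, 2 or 3 they were 4 and 6, 6 and 7, and 2 and 8, and without IL-10 replicate 1, 2 or 3 they were 2 and 8, 6 and 7, and 5 and 6. Among those called, a peak 11.4 kb upstream of the Gbp4 start (chr5:105579565-105580368) had 0.920, 0.879 and 0.693 CPM with JQ1 and 2.58, 3.04 and 1.88 CPM with IL-10 (log2 fold-change -1.52 ± 0.30 SE, adjusted p = 0.000411). A peak in Oasl1 (chr5:115376779-115377322) had 0.805, 0.753 and 1.34 CPM with JQ1 and 0.292, 0.241 and 0.229 CPM with IL-10 (log2 fold-change 2.00 ± 0.41 SE, adjusted p = 0.000748). Without replicate 3 the Oasl1 peak had a log2 fold-change of 1.61 and did not pass (adjusted p = 0.113). The others named by the rule were lower with JQ1 near Nkx2-1, Vcam1 and Mtus2 and higher near Ext1, Alpk2 and Ren1, at levels up to 1.58 CPM in any of these libraries, with adjusted p from 0.0199 to 0.0490. Of the peaks named for their LPS level or gene, those at Irf1, Gm4759 and Cbx7 were called lower with JQ1 alone (log2 fold-changes -0.58, -0.80 and -0.60), and the second Rasgef1b peak and those at Rsad2 and Ifit3 higher (0.51, 0.63 and 0.65), with edgeR adjusted p from 0.000258 to 0.0402. Of these 6, only the Gm4759 peak passed the test when each replicate or library was left out in turn.

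Beside unstimulated cells, which entered the rule, both treatments alone were lower at the median member. The ratio was 0.652 for JQ1 and 0.657 for IL-10, with 0.750 and 0.810 over all distal peaks. With TMM scaling, which takes account of such general shifts, the medians were 0.806 and 0.770 for members and 0.919 and 0.942 for all distal peaks. The ratios differed between replicates, from 0.553 in replicate 1 to 0.840 in replicate 3 for JQ1 and from 0.518 to 0.878 for IL-10. The levels with LPS and treatment, which entered the rule, were also set beside those with the treatment alone. The median ratio of LPS + JQ1 to JQ1 alone was 2.06 (range 0.476 to 60.5), beside 1.04 over all distal peaks, and that of LPS + IL-10 to IL-10 alone was 1.98 (range 0.450 to 19.8), beside 1.05.

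Members were longer than the typical distal peak, with a median of 1134 bp against 906 bp, but shorter than the peaks lowered by JQ1 only (1422 bp), by IL-10 only (1264 bp) or by neither (1362 bp). Their middles lay in introns at 463 members (49.0%, against 55.6% of distal peaks) and between genes at 417 (44.1%, against 38.8%). The median distance to a protein-coding start was 18.3 kb, against 15.8 kb. The median GC content of the middle 500 bp was 44.2%, against 46.2%, and lay between 43.7% and 44.4% in the other opened classes.

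Motifs were searched in the middle 500 bp on both strands, and a match is a description of letters rather than a site. The interferon-stimulated response element (ISRE, GAAANNGAA), bound by IRF and STAT complexes, was found in 28.9% of members, with a Wilson 95% interval from 26.1% to 31.9% that covers counting error only. Its share was 31.1% in peaks lowered by IL-10 only, 20.2% in those lowered by JQ1 only, 23.4% in those lowered by neither and 16.8% of all distal peaks. The NF-kappaB consensus was in 11.6% of members, 13.0%, 7.35% and 12.6% of the other opened classes in the same order, and 5.35% of all distal peaks.

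AP-1 (TGAGTCA or TGACTCA), the motif of the Fos and Jun factors, was in 13.2% of members (11.2% to 15.5%), near its share in all distal peaks (13.6%). In opened peaks lowered by JQ1 only, by IL-10 only and by neither it was in 15.5%, 19.0% and 22.7%. The STAT motif TTCNNNGAA, whose letters can overlap an ISRE, was in 15.3% of members and 14.7% of all distal peaks. C/EBP (TTGCNNAA) was in 20.7% and 20.5%, PU.1 (GAGGAAGT) in 5.40% and 6.98%, the E-box CACGTG in 6.24% and 6.76%, and the CRE motif TGACGTCA in 0.317% and 0.410%. Peaks of a run are neighbours, and no test was made across peaks. Over whole peaks, whose lengths differ between classes, ISRE was in 49.7% of members, 52.4% of peaks lowered by neither and 33.0% of all distal peaks, so the order of the first 2 turned. AP-1 over whole peaks was in 28.9%, 44.8% and 25.3%.

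**Figure D5:**
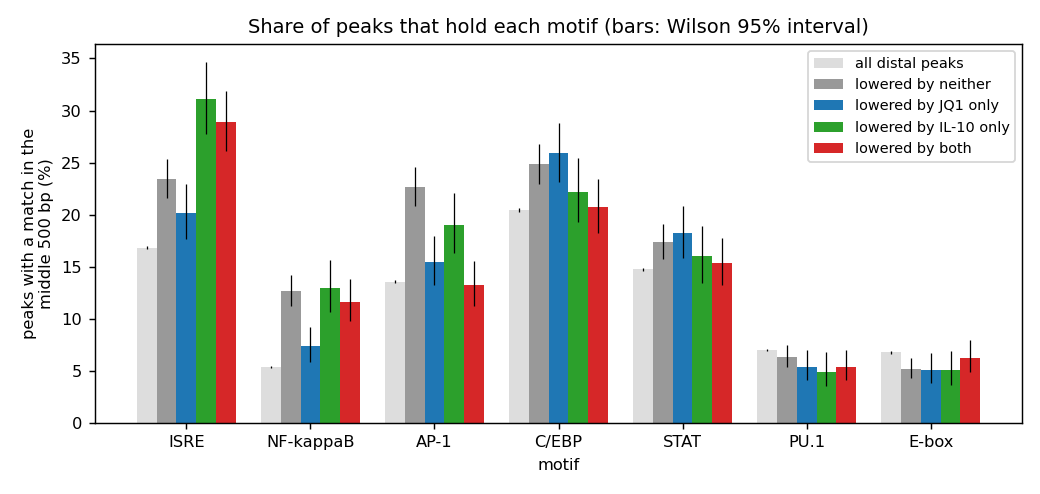
Share of peaks (%) with a match to each motif in the middle 500 bp, for all distal peaks, the LPS-opened classes and the 945 members (red); bars show Wilson 95% intervals. ISRE is highest in members (28.9%) and in peaks lowered by IL-10 only (31.1%), and AP-1 is highest in peaks lowered by neither (22.7%).

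The promoters of the genes nearest to members are separate peaks that the rule did not use. Members lay within 25 kb of the start of 337 nearest genes, 299 of which had a promoter peak, 645 in all. With LPS, 370 of the 645 (57.4%) were called higher in edgeR's test, against 24.3% of all promoter peaks. LPS + JQ1 was lower than LPS at 123 (19.1%), against 3.64%, and LPS + IL-10 was lower at 223 (34.6%), against 6.8%. Both treatments lowered 90 promoter peaks, of 70 genes, and 141 of those that rose with LPS were lowered by neither. The matching shares over all promoter peaks were not counted, so nothing is read from these joint counts. Promoter peaks can lie close to a member, and 166 were within 5 kb of one. Among the other 479, 51.6% were higher with LPS, 10.6% lower with JQ1 and 28.2% lower with IL-10. Without replicate 2 the calls among all 645 were 74 for JQ1 and 96 for IL-10, and without replicate 3 they were 85 and 147.

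Promoter peaks of genes nearest to the other opened classes, and to no member, were counted in the same way. With LPS 54.8% were called higher for peaks lowered by JQ1 only, 41.2% for those lowered by IL-10 only and 44.6% for those lowered by neither. For peaks lowered by JQ1 only, 17.0% of 578 promoter peaks were lower with JQ1 and 11.1% with IL-10. For those lowered by IL-10 only the shares were 4.73% and 21.1% of 507, and for those lowered by neither they were 5.63% and 10.3% of 1635. These shares were set side by side and their differences were not tested.

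The largest promoter falls included those at Il1b, Rasgef1b and Oasl1. Adjacent peaks at the Il1b start had means of 12.2 and 12.1 CPM with LPS and fell by 2.40 ± 0.21 SE and 2.36 ± 0.22 SE on the log2 scale with JQ1 (adjusted p = 5.54e-17 and 9.99e-15), and by 1.04 and 1.05 with IL-10. At the Rasgef1b promoter (chr5:99660930-99669958) LPS gave 54.1, 60.9 and 53.5 CPM, LPS + JQ1 29.4, 24.4 and 27.9 CPM and LPS + IL-10 10.0, 13.7 and 13.8 CPM. The log2 fold-changes were -1.03 ± 0.13 SE with JQ1 and -2.24 ± 0.14 SE with IL-10 (adjusted p = 2.0e-09 and 1.26e-25). A peak at Mthfs fell by 1.25 with JQ1 and by 2.16 with IL-10, a peak at Cerkl by 2.00 and 1.15, and a weak peak at Itgav by 2.14 with IL-10, all of them with adjusted p under the threshold in edgeR's test. At Itgav the change with JQ1, -0.75 on the log2 scale, did not pass (adjusted p = 0.416).

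Of 3 adjoining promoter peaks at Oasl1, 2 were among the 8 largest. They had means of 2.37 and 7.52 CPM with LPS and fell by 2.13 and 1.93 on the log2 scale with JQ1. With IL-10 the log2 fold-changes were -0.87 (adjusted p = 0.110, not past the threshold) and -0.84 (adjusted p = 0.00306). The order of the treatments at the Il1b, Rasgef1b and Oasl1 promoters was that of the members beside them. These promoters were picked from the largest changes and lie close to members, so the shared order is only a description. The other promoters named were not compared in this way.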

How the data were processed

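Per the labels and the study's methods, the authors ran PEPATAC, with Bowtie2 for alignment to mm9 and MACS2 for peak calling per library, and classed the joined peaks as promoter (1000 bases before to 100 after a start) or distal with ChIPseeker. The deposited values are raw counts per peak and library, without pooling. Reads outside peaks, and 6 columns that match no sample, were not used. Members and gene lists were chosen with earlier results of these data known.

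Counts were divided by the column sum to give CPM. edgeR 4.0.16 (filterByExpr, TMM, quasi-likelihood, all 6 groups, Benjamini-Hochberg over all peaks, R 4.3.3) was the main test, and DESeq2 1.42.0 an alternative. On simulated counts for JQ1 alone against IL-10 alone, 134 of 200 peaks changed by 1.5 (log2) were recovered, with 7 false calls among 194114. The simulated levels were means over all 18 libraries, which for members lie above their levels without LPS. The figures thus need not hold for members. Replicate counts differed by more than sampling noise.

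Peaks named were the 8 highest with LPS, the 8 with the lowest larger treated ratio among those with 4 CPM or more, the highest member at each of up to 14 list genes, 4 per direction for JQ1 alone against IL-10 alone, the 2 nearest each limit, the 3 genes with most members (Rsad2 tied) and the 8 promoters with the largest change. Runs and their genes were chosen after values were seen. Genes are GENCODE vM1, and a nearest gene is the nearest protein-coding start.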

Additional observations from a re-analysis of the deposited data

How the results depend on the processing

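The number of peaks that met the rule was 447 with treated ratios of 0.5 or less, 1605 with 0.7 or less and 494 with an LPS ratio of 3 or more. It was 639 in replicate 1 alone, 1540 in replicate 2 alone and 1900 in replicate 3 alone. Of the 945, these held 410, 695 and 693. With 1 replicate left out it was from 776 to 1452, the highest without replicate 1. Scaling by TMM gave 1284 peaks, 924 of the 945 among them. Leaving out unstimulated replicate 1, chosen after seeing the data like the removal of LPS + JQ1 replicate 1, gave 1107, with 932 of the 945.

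For JQ1 alone against IL-10 alone, members called higher ranged from 1 to 6 with a replicate or 1 library left out, and members called lower from 3 to 8. An FDR under 0.01 gave 1 higher and 6 lower, and scaling by total counts 21 lower. Shares over distal peaks are not given beside these counts, so nothing is read from them. With at least 10 counts in every library 518 members were tested, which gave 518 higher with LPS, 516 lower with JQ1 and 518 lower with IL-10. The rule used those contrasts, so nothing is read from these calls. Promoter peaks lower with JQ1 ranged from 74 to 113 and those lower with IL-10 from 96 to 169 with a replicate left out, and an FDR under 0.01 gave 146 for IL-10. Promoters could not be tested with distal peaks alone.

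The labels call the samples matched but do not say that a replicate number marks 1 mouse. The mean correlation of deviations from the group means was 0.0057 for the same number and -0.0029 for others, and 9 of 18 libraries correlated best with their own number, so the numbers were not taken as pairs. With the replicate number as a replicate block, the counts were 8 and 13 for JQ1 alone against IL-10 alone, and 363, 119 and 217 for promoters. For the rule's contrasts they were 945, 851 and 907, from which nothing is read. 

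Motif shares moved with the window. Over whole peaks and in the middle 200 bp they were 28.9% and 7.62% for AP-1, 49.7% and 14.0% for ISRE, 36.1% and 6.35% for STAT, 21.4% and 6.46% for NF-kappaB, 11.2% and 2.33% for PU.1, 42.6% and 8.78% for C/EBP, and 15.8% and 2.75% for the E-box. CRE was in 1.06% of whole peaks. The median ratio of JQ1 alone to unstimulated was 0.806 with TMM scaling, and from 0.592 to 0.730 with a replicate left out.

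No named peak changed direction in the 4 contrasts under any alternative, and 106 values of named peaks did not pass where the main test did. The choice of members and of named peaks used values of these contrasts, so nothing is read from the steady direction. Runs numbered 605 with a gap of 10 kb. With 3 libraries per group, a change that was not called is not shown to be absent, and the cause of the shifts was not tested.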
